A study of Mus musculus with 16 samples.

Results

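Sfn, Elf3, Esrp1 and Erbb3 are 4 genes of epithelial cells that were measured here in cultures of mouse fibroblasts. They were found through the probes that the array annotation ties to one of these symbols alone, 5 of 15247 probes, and are 4 of 7114 named genes. Sfn had probe 200152, Elf3 probe 201379, Erbb3 probe 203114, and Esrp1 had both probe 203427 and probe 207951, which were averaged. The genes were chosen by their log2 ratios on these same arrays, in the WT arrays and between the cell types, so their levels and the differences between the cell types are given as a description and no test is read from them.

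Total RNA of the cell types M833 and WT was hybridised together with a shared reference RNA on two-colour arrays, with 8 arrays each, 4 with the cell sample in Cy5 and 4 with it in Cy3. The series title names Met mutations in MEFs, the usual abbreviation of mouse embryonic fibroblasts, and Met encodes the receptor of hepatocyte growth factor. The labels explain neither the name M833 nor the make-up of the reference, and they do not say whether arrays came from separate cultures. Values are log2 ratios, read as cell sample over reference, so that 0 is the level of the reference and -1 is 1 log2 unit below it. That direction is likely, going by the wording of the titles, but no label states it. Replicate numbers follow the order of the arrays in the series.

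Epithelial cells form sheets held together by cadherin junctions, tight junctions and desmosomes, and fibroblasts are mesenchymal cells that lack such sheets. Sfn encodes 14-3-3 sigma, an adaptor protein of stratified epithelia that is induced by p53 and holds back the cell cycle. Elf3 encodes an ETS transcription factor largely restricted to epithelia, Esrp1 an RNA-binding protein that directs epithelial patterns of splicing, and Erbb3 a receptor of the EGF receptor family that binds neuregulins and signals through partner receptors.

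RefSeq promoter windows, 250 bases before to 50 after the start of the gene (GRCm38.p6), were given for Sfn and Elf3. They are shown because both hold CACCTG, the letters of an E-box of the kind that Snail and ZEB repressors of epithelial genes can bind. The capitals mark that motif, whose first base lies at -41 from the start of Sfn and at -140 from that of Elf3. It was searched on both strands as CACCTG or CAGGTG and was present in 20.2% of 32851 windows in the table, so that a match in these windows is a description and not a binding site. A second motif, GGAAG or CTTCC, which contains the core of ETS sites, was present in 71.4% of windows, was found in the window of Sfn, at -240 and 22, and was not found in that of Elf3; no match overlapped CACCTG. The windows lie at chr4:133602119-133602418 on the minus strand for Sfn and at chr1:135258423-135258722 on the minus strand for Elf3, and each is written 5′ to 3′ along the gene.
Sfn: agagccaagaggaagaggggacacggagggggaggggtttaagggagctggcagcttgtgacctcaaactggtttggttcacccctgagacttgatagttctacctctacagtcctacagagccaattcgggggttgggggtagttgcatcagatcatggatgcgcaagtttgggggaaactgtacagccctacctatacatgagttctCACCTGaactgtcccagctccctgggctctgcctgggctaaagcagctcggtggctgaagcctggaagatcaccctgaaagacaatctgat
Elf3: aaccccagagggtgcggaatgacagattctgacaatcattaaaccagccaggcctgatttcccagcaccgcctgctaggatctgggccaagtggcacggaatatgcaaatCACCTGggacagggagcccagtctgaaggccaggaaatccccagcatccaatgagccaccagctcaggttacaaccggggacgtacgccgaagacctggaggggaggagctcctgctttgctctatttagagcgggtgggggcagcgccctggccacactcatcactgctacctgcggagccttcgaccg
Esrp1 and Erbb3 are named without a sequence.

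All 4 genes lay below the reference on every array of both cell types. Mean log2 ratios in M833 were -2.29 for Esrp1, -1.61 for Sfn, -1.34 for Erbb3 and -1.23 for Elf3. In WT they were -2.70 for Esrp1, -2.07 for Sfn, -1.78 for Elf3 and -1.65 for Erbb3. As ratios, Esrp1 was 4.87-fold below the reference in M833 and 6.50-fold in WT, and Elf3 2.34-fold in M833 and 3.44-fold in WT. Few named genes had lower ratios: the share of them below Elf3, the highest of the 4 in M833, was 5.19%, and the share below Esrp1 was 1.15% in M833 and 0.815% in WT. If the ratios ran the other way, reference over cell sample, the 4 genes would lie above the reference and the same shares of genes above them. A ratio depends as much on the reference as on the cells, and in a culture fewer cells of a type and less RNA per cell cannot be told apart. Each gene has its own probe and its own level in the reference, so these ratios do not order the 4 transcripts by abundance in the cells. In the same arrays the mesenchymal genes Vim and Fn1 lay above the reference, Vim at 0.85 in M833 and 1.04 in WT and Fn1 at 1.65 in M833 and 2.03 in WT. The fibroblast markers did not all do so, since Col3a1 was at -1.29 in M833 and -0.91 in WT and Dcn at -2.80 in M833 and -2.56 in WT.

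**Figure D1:**
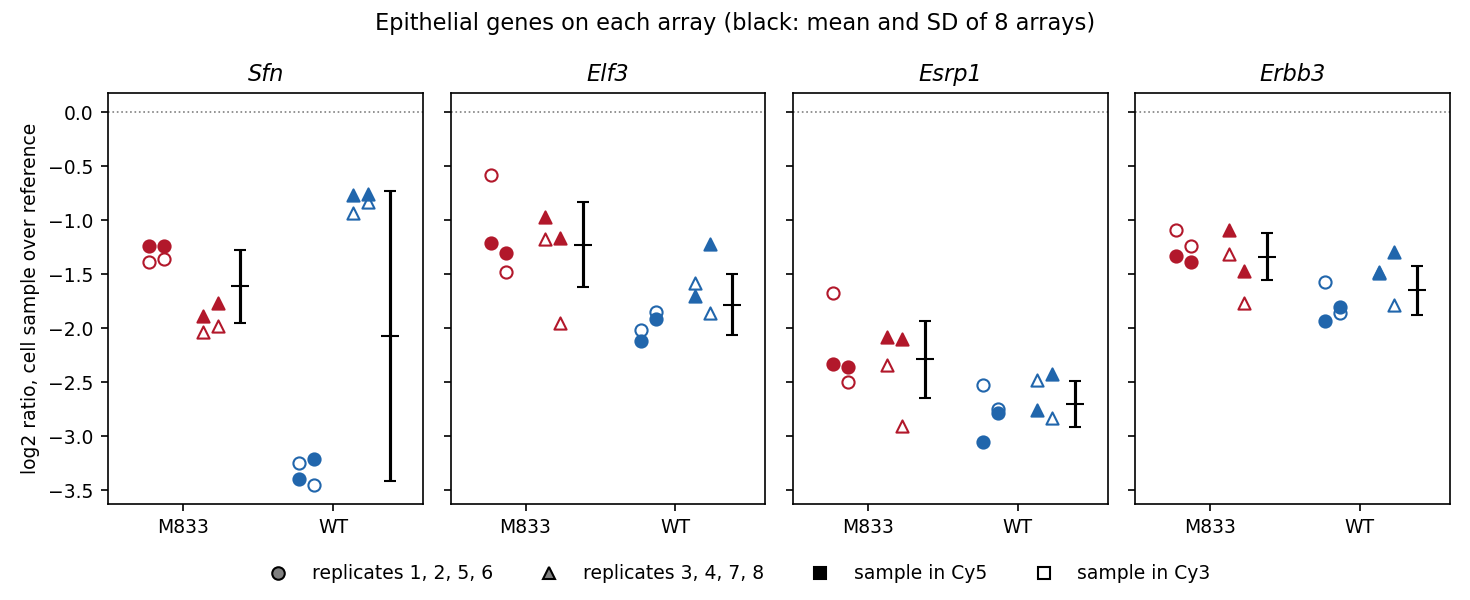
Log2 ratio of Sfn, Elf3, Esrp1 (mean of both probes) and Erbb3 on each array, cell sample over reference, with M833 in red and WT in blue, replicates 1, 2, 5 and 6 as circles, replicates 3, 4, 7 and 8 as triangles, and filled symbols for the sample in Cy5. Black bars are the mean and SD of 8 arrays; all M833 arrays of Sfn lie between a high set of 4 WT arrays near -0.82 and a low set of 4 near -3.33.

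Sfn, the p53-induced 14-3-3 protein, had the widest spread of the 4 genes, and that spread was in WT. On M833 replicates 3, 4, 7 and 8 its log2 ratio was -1.89, -1.77, -2.03 and -1.98, and on M833 replicates 1, 2, 5 and 6 it was -1.24, -1.24, -1.39 and -1.36. On WT replicates 3, 4, 7 and 8 Sfn was at -0.77, -0.76, -0.93 and -0.83, and on WT replicates 1, 2, 5 and 6 at -3.39, -3.21, -3.25 and -3.45. All M833 arrays lay between the levels of WT. The M833 sets were -0.61 apart, with the lower values on M833 replicates 3, 4, 7 and 8. Replicate numbers pair nothing between the cell types, so the sets of M833 have no counterparts in WT. The WT arrays took a pair of levels 2.50 log2 units apart, a 5.67-fold difference, and each level held arrays of both dye orientations. Within the WT levels the SD was 0.08 for the higher and 0.11 for the lower (n = 4 each).

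The mean of Sfn was -1.61 ± 0.34 in M833 and -2.07 ± 1.34 in WT (SD, n = 8 each), a log2 difference M833 minus WT of 0.46 with a 95% interval from -0.53 to 1.46. Of 7114 named genes 45 (0.633%) had a larger SD over the WT arrays, where the median SD was 0.16. A gap between these sets of arrays larger than that of Sfn was found in 11 named genes in M833 and in 9 in WT. The sets did not overlap in 4.04% of all features in M833 and in 21.5% in WT. Without WT replicates 1, 2, 5 and 6 the difference of Sfn was -0.79, and without WT replicates 3, 4, 7 and 8 it was 1.71, so its sign depends on which WT arrays are used. With array weights, on all 16 arrays, it was -0.06. What set the WT arrays apart was not tested.

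Elf3, the epithelial ETS factor, ran in M833 from -1.95 on replicate 8 over a median of -1.19 to -0.58 on replicate 5, both on arrays with the sample in Cy3. In WT it ran from -2.12 on replicate 1 over a median of -1.85 to -1.22 on replicate 4. The cell types overlapped, as they did in all 4 genes (8 arrays each did not overlap in 4.59% of features), with 5 M833 arrays above the highest WT array and 2 WT arrays below the lowest M833 array. Its mean was -1.23 ± 0.40 in M833 and -1.78 ± 0.29 in WT (SD, n = 8 each), a difference of 0.56 ± 0.16 (SE), or 1.47-fold. The difference was 0.58 on arrays with the sample in Cy5 and 0.53 on those with it in Cy3. In WT the set of replicates 3, 4, 7 and 8 averaged -1.59 and the set of replicates 1, 2, 5 and 6 -1.98, and these sets overlapped. Without the higher of these sets the difference between the cell types was 0.75 and without the lower it was 0.36.

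Esrp1, the splicing regulator, averaged -2.29 ± 0.36 in M833 and -2.70 ± 0.21 in WT (SD, n = 8 each), a difference of 0.42 ± 0.14 (SE). Its probes did not give the same size of difference. Probe 207951 ran from -2.86 to -1.32 in M833 and from -3.11 to -2.52 in WT, with a difference of 0.70 ± 0.19 (SE). Probe 203427 ran from -2.94 to -2.00 in M833 and from -3.00 to -2.32 in WT, with a difference of 0.13 and a 95% interval from -0.17 to 0.43. In WT probe 207951 lay below probe 203427 on 8 of 8 arrays, by a median of 0.23 on the log2 scale, while in M833 it lay above it on 6 of 8 arrays. The gap was widest on M833 replicate 3, where probe 203427 was at -2.73 and probe 207951 at -1.43. Whether the probes read different transcripts was not tested.

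Erbb3, the neuregulin receptor, ran from -1.77 over a median of -1.32 to -1.09 in M833 and from -1.93 over a median of -1.68 to -1.29 in WT. Its mean was -1.34 ± 0.22 in M833 and -1.65 ± 0.22 in WT (SD, n = 8 each), a difference of 0.32 ± 0.11 (SE), or 1.24-fold. Of the M833 arrays 3 lay above the highest WT array, and 4 WT arrays lay below the lowest M833 array. The difference was 0.31 with the sample in Cy5 and 0.32 with it in Cy3. As in Elf3, the lowest M833 value was on replicate 8.

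In limma, fitted over all 12761 features with dye orientation as a term, 25.9% of features passed an adjusted p of 0.05, 10.0% higher and 15.9% lower in M833. Elf3, Esrp1 and Erbb3 were among those that passed, and Sfn was not. Since the genes were picked with this contrast known, nothing is read from that count. The calls of Esrp1 and Erbb3 were lost in most fits that left out 1 array: Esrp1 passed in 5 and Erbb3 in 6 of 16 such fits, and Elf3 in 16 of 16. With the 4 sets of arrays as a random block, where 11.5% of features passed, none of the 4 genes did.

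The differences of Elf3, Esrp1 and Erbb3 also moved when log ratios were scaled between arrays. The median absolute log2 ratio of an array, over all probes, ran from 0.199 to 0.283 in M833 and from 0.230 to 0.343 in WT. By this measure of width ratios were wider in WT. At the low end the cell types hardly differed: the 5th percentile of an array had a median of -1.135 in M833 and -1.145 in WT. With log ratios scaled to the same median absolute value the difference was 0.30 for Elf3, 0.13 for Sfn, 0.04 for Erbb3 and -0.04 for Esrp1, the last with a change of sign. Centring each array on its median instead gave 0.58 for Elf3, 0.48 for Sfn, 0.34 for Erbb3 and 0.44 for Esrp1. Whether the width came from the cells or from the hybridisation was not tested.

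**Figure D2:**
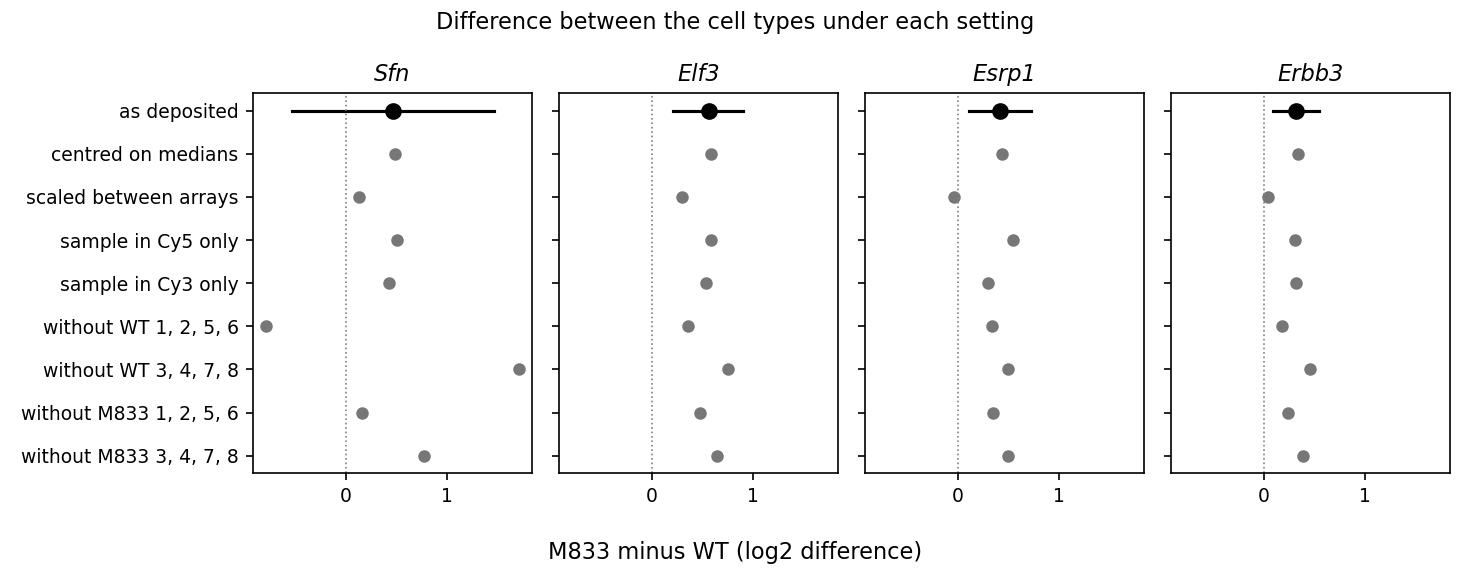
Log2 difference M833 minus WT of each gene under 9 settings, with the values as deposited and their 95% interval in black on top and other settings in grey. Sfn moves from -0.79 to 1.71 as WT arrays are left out, and the differences of Esrp1 and Erbb3 lie near 0 after scaling between arrays.

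Over the 16 arrays, with the mean of each dye orientation taken off, Elf3 and Esrp1 moved together with r of 0.94, Elf3 and Erbb3 with 0.89 and Esrp1 and Erbb3 with 0.86. Sfn had r of 0.50 with Elf3, 0.34 with Esrp1 and 0.55 with Erbb3. These values describe 16 arrays that share a reference and fall into sets, and no p is given. The mean of each cell type was left in, so r also holds the differences between M833 and WT, which were known when the genes were chosen. After scaling between arrays the first 3 values were 0.70, 0.67 and 0.65, and those of Sfn 0.34 with Elf3, 0.06 with Esrp1 and 0.41 with Erbb3. The named genes most like Sfn were Aldh1a2, which encodes an enzyme of retinoic acid synthesis, the mitochondrial import receptor gene Tomm70a and the small heat shock protein gene Hspb1, each with r of 0.98. Aldh1a2 averaged -0.20 and 0.02 on the M833 sets, between 0.47 on WT replicates 3, 4, 7 and 8 and -0.89 on WT replicates 1, 2, 5 and 6. Most like Elf3 were Plet1, an epithelial surface protein gene (r = 0.97), Dab1 (0.95) and Il16 (0.95). Most like Esrp1 were Plet1 (0.96), Dab1 (0.95) and the histidine decarboxylase gene Hdc (0.95). Most like Erbb3 were the tricellular junction gene Marveld2 (0.94), the lectin gene Mbl2 (0.94) and Bach2 (0.93). After scaling, in the same order, r was 0.98, 0.96 and 0.95 for the genes most like Sfn and 0.95, 0.91 and 0.94 for Elf3. For Esrp1 it was 0.79, 0.70 and 0.92, and for Erbb3 0.83, 0.72 and 0.74.

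A wider list of 77 genes of epithelial structure and regulation, without the 4 genes above, had 39 measured members. Most of them lay below the reference too: 35 of 39 in both cell types, against 43.5% of all named genes, and 25 of 39 by more than 1 log2 unit, against 6.34% of all named genes. On the other side of the reference were 4 of 39 in both cell types, against 43.7% of named genes, and 0 of 39 by more than 1 log2 unit in both, against 1.71%. With the direction of the ratios turned, below and above change places in these counts. The simple epithelial keratin gene Krt8 was at -2.90 in M833 and -3.11 in WT, the E-cadherin gene Cdh1 at -2.70 in M833 and -2.52 in WT, and the desmosomal plaque gene Pkp2, at 1.09 in M833 and 0.96 in WT, was the highest of the list. The P-cadherin gene Cdh3 was above the reference as well, at 0.48 in M833 and 0.78 in WT.

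Between the cell types 3 of the 39 genes were higher in M833, 4 were lower and 32 did not pass, where 10.0% of all features were higher and 15.9% lower, with a median difference of 0.13 against -0.03 over all features. Klf5, a transcription factor gene of proliferating epithelium, rose by 0.45 ± 0.06 (adjusted p = 3.64e-05, limma), the desmosomal cadherin genes Dsg2 by 0.30 ± 0.09 and Dsc2 by 0.14 ± 0.05 (SE, n = 8 each). Sh2d4a fell by 0.42 ± 0.06 (adjusted p = 0.000241, limma), the tight junction gene Marveld3 by 0.41 ± 0.14, Cdh3 by 0.30 ± 0.06 and the p120 catenin gene Ctnnd1 by 0.17 ± 0.03. Klf5 ran from -1.73 to -1.32 in M833 and from -2.11 to -1.72 in WT, so that only M833 replicate 3 lay below the highest WT array. The tight junction gene Cldn7 had the largest difference of the list, 0.70 ± 0.26, and did not pass (adjusted p = 0.062, limma), and neither did Krt8 (0.20), Krt18 (0.27), Krt19 (0.15), Epcam (0.40) or Cdh1 (-0.17), whose probes gave -0.41 and 0.06.

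The calls of this list depended on the scaling. With log ratios scaled between arrays none of the 39 was higher and 12 were lower in M833, where 26.7% of all features passed, 16.8% lower and 9.91% higher, and the list median was -0.10. Cdh1 was then at -0.65 and Krt7 at -0.62, and Klf5 at 0.14 did not pass (adjusted p = 0.180, limma). Sh2d4a, Cdh3, Marveld3 and Ctnnd1 were lower with and without scaling. With the sets of arrays as a random block Klf5 was higher and Cdh3, Ctnnd1 and Sh2d4a were lower, against 4.40% of features higher and 7.08% lower. Without WT replicates 1, 2, 5 and 6, 5 genes of the list were higher and 8 lower, where 33.9% of features passed, 13.8% higher and 20.1% lower. Without WT replicates 3, 4, 7 and 8, 11 were higher and 6 lower, where 36.3% of features passed, 14.5% higher and 21.8% lower. The calls of Dsg2 (11 of 16), Dsc2 (6 of 16) and Marveld3 (6 of 16) held in only some of the fits without 1 array.

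**Figure D3:**
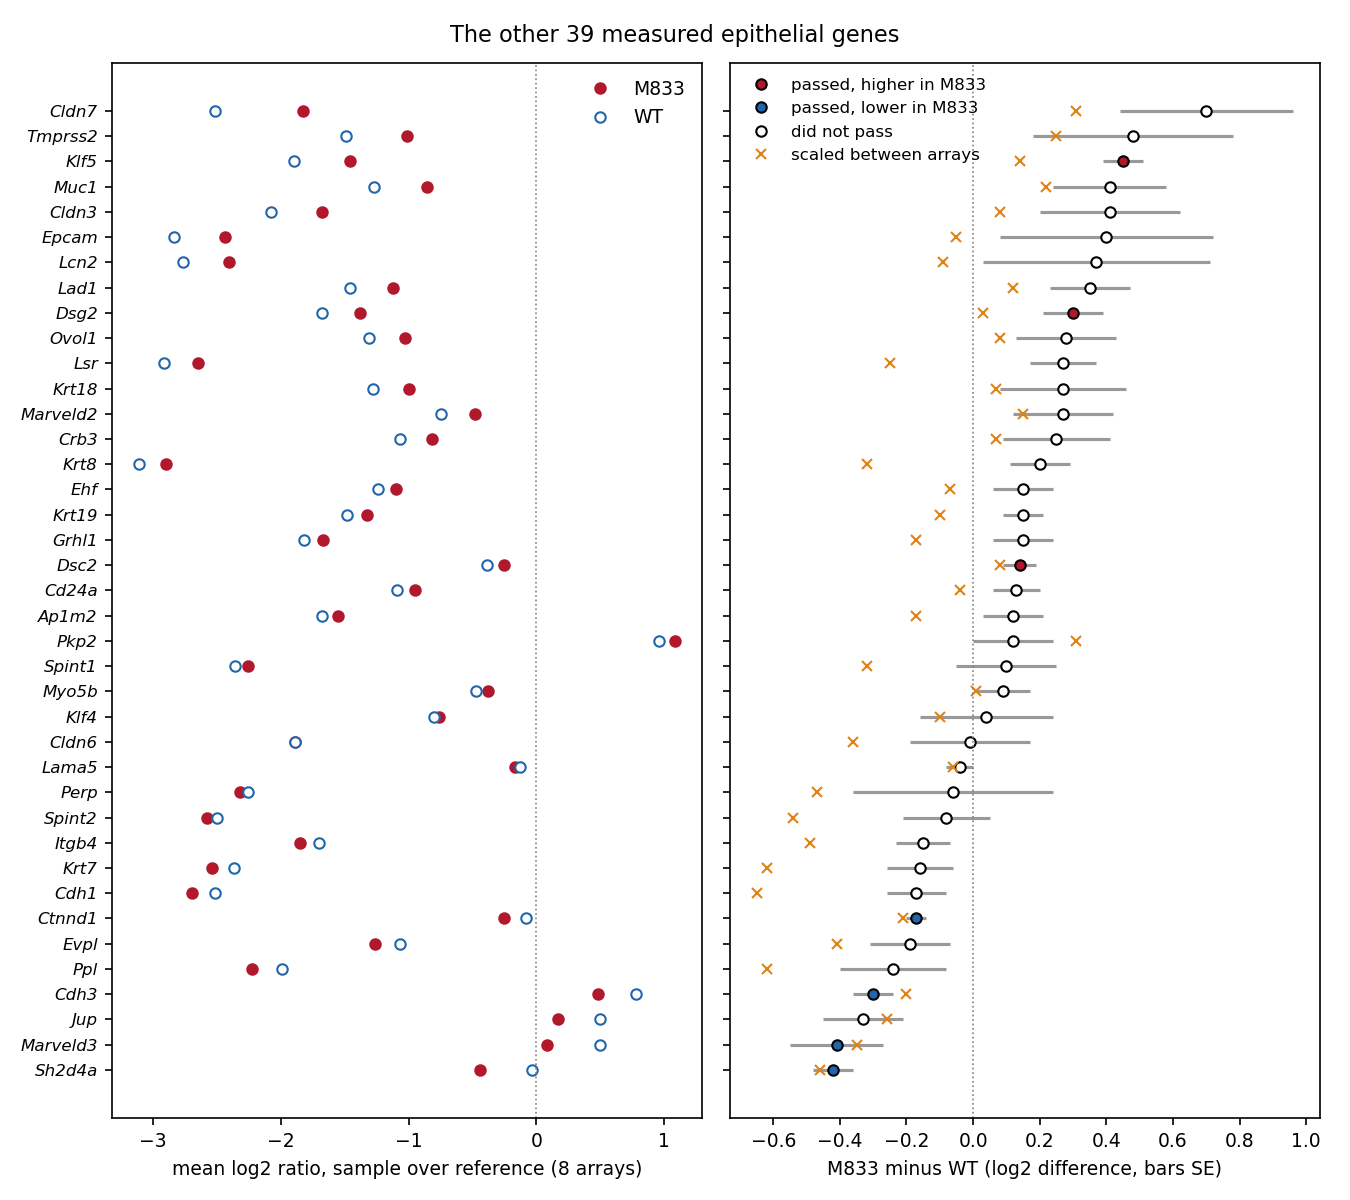
The 39 measured genes of the wider epithelial list, with mean log2 ratios in M833 (filled) and WT (open) on the left and the difference M833 minus WT with its SE on the right. Genes that passed in limma are coloured, and crosses give the difference after scaling between arrays, which lies further left for most genes; 35 of 39 genes lie left of 0 in both cell types.

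A few genes of this list also differed widely between the sets of WT arrays. Of 39 genes 2, Perp and Lcn2, had a gap between the WT sets of at least 1 log2 unit, against 1.28% of named genes, and in both the set of replicates 3, 4, 7 and 8 was the higher. Perp, another p53 target and a desmosome gene, averaged -2.65 on M833 replicates 3, 4, 7 and 8 and -1.98 on M833 replicates 1, 2, 5 and 6. It averaged -1.58 on WT replicates 3, 4, 7 and 8 and -2.94 on WT replicates 1, 2, 5 and 6. Replicate numbers pair nothing between the cell types, so the sign of a gap is compared only between genes of the same cell type. The gap, replicates 3, 4, 7 and 8 minus the others, was -0.23 in M833 and 1.17 in WT for the lipocalin gene Lcn2. The M833 gap of Lcn2 includes replicate 8 at -3.45, against -2.50 to -1.94 on the other M833 arrays. Its WT gap includes 1 array at -0.94 in the set of WT replicates 3, 4, 7 and 8, whose mean was -2.19, and rests in part on that array. For the claudin gene Cldn3 the gap was -0.23 in M833 and 0.87 in WT, and for Krt18 -0.36 in M833 and 0.84 in WT. Signs opposite to those of Sfn in each cell type were seen in Klf4, with 0.42 in M833 and -0.95 in WT. The periplakin gene Ppl had them too, with 0.20 in M833 and -0.79 in WT. So did the envoplakin gene Evpl, with 0.19 in M833 and -0.58 in WT. The WT sets did not overlap in 10 of the 39 genes, or 25.6%, near the 21.5% of all features. The M833 sets did not overlap in 5 of the 39 genes, or 12.8%, against 4.04% of all features. Gaps with the signs of Sfn in both cell types were found in 22 of the 39 genes, or 56.4%, against 30.9% of named genes. That share is not a like background, since 35 of the 39 genes lay below the reference, against 43.5% of named genes. Whether other genes at such low ratios had these signs as often was not tested. The genes named here for their gaps were singled out after their values were seen.

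**Figure D4:**
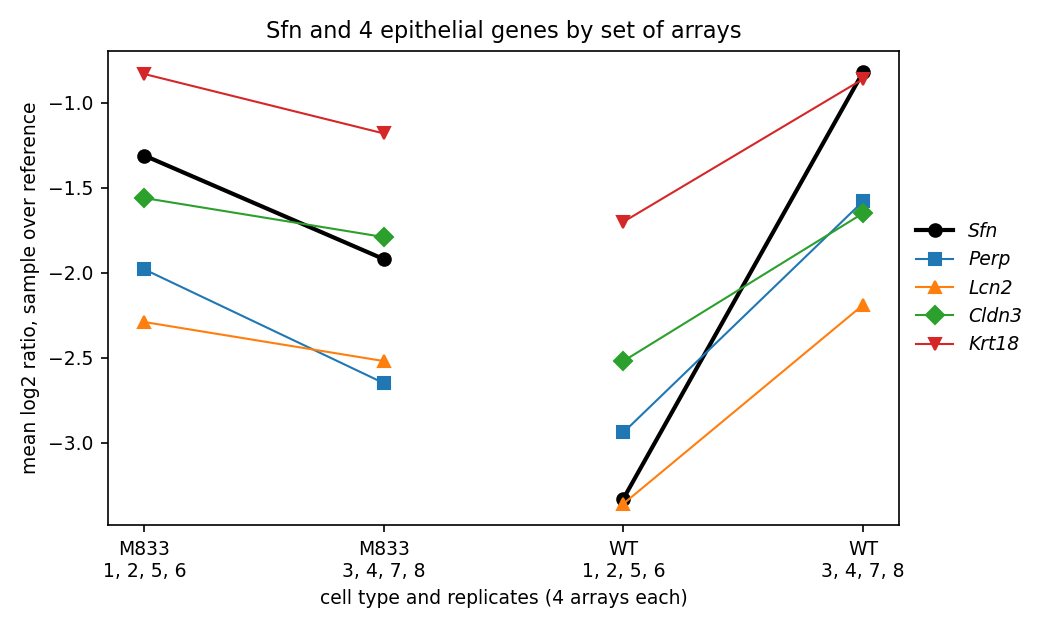
Mean log2 ratio of Sfn and of Perp, Lcn2, Cldn3 and Krt18, the 4 genes of the wider list with the largest gaps in the direction of Sfn, by set of 4 arrays. In each gene the mean of M833 replicates 3, 4, 7 and 8 lies below that of M833 replicates 1, 2, 5 and 6. In Lcn2 M833 replicate 8 lies far below the other M833 arrays, and 1 array of WT replicates 3, 4, 7 and 8, at -0.94, lies well above their mean. The mean of WT replicates 3, 4, 7 and 8 lies above that of WT replicates 1, 2, 5 and 6. Lines join the sets of a cell type only, since replicate numbers pair nothing between the cell types.

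The other 14-3-3 genes varied less over the arrays. All 6 other 14-3-3 genes were measured, with SDs over the WT arrays from 0.08 for Ywhaq to 0.31 for Ywhag, against 1.34 for Sfn. Ywhab fell by 0.11 ± 0.03 (adjusted p = 0.0174, limma), where 15.9% of all features were lower and 10.0% higher. The other 5 did not pass, with differences from -0.12 for Ywhag to 0.12 for Ywhae. The call of Ywhab was lost with the sets as a random block (adjusted p = 0.127, limma) and without WT replicates 3, 4, 7 and 8 (adjusted p = 0.146, limma). Among 7 measured p53 targets 3 were lower in M833, 15.9% of features being so, and none was higher. After scaling Btg2 alone was lower (16.8% of features), with differences of -0.16 for Mdm2 and -0.04 for Ccng1. Without WT replicates 3, 4, 7 and 8 the difference of Mdm2 was -0.17 and passed (adjusted p = 0.0269, limma). In that fit 5 of the 7 were lower (21.8% of features). Without WT replicates 1, 2, 5 and 6, 4 were lower (20.1% of features) and 1 was higher (13.8%). With the sets as a random block the same 3 genes, Mdm2, Ccng1 and Btg2, were lower (7.08% of features). Mdm2, the p53 ubiquitin ligase gene, was at 1.82 in M833 and 2.34 in WT, and Btg2, which restrains proliferation, at 0.17 in M833 and 0.63 in WT, both on the other side of the reference from Sfn and Perp.

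Of 21 genes of the ErbB family, its ligands and adaptors only 7 were measured, and no ErbB receptor besides Erbb3 was among them. Tgfa, a ligand of the EGF receptor, was at -1.33 in M833 and -1.71 in WT, and its difference of 0.38 ± 0.14 did not pass (adjusted p = 0.062, limma). The adaptor gene Shc1 fell by 0.21 ± 0.04 and Pik3r1, which encodes the regulatory subunit of PI3 kinase that ErbB3 recruits, by 0.20 ± 0.05 (SE, n = 8 each). Grb7 was at -2.22 in M833 and -2.29 in WT, while Rnf41, whose product marks ErbB3 for degradation, was at 0.19 in M833 and 0.09 in WT. With the sets as a random block neither Shc1 (adjusted p = 0.0614) nor Pik3r1 (adjusted p = 0.107, limma) passed.

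Of 10 measured ETS genes beside Elf3, 2 were higher in M833, Ets1 by 0.28 ± 0.09 and Elk4 by 0.12 ± 0.04 (SE, n = 8 each), and none was lower, against 10.0% of features higher and 15.9% lower. Ehf, the epithelial relative of Elf3, was at -1.10 in M833 and -1.24 in WT and did not pass. Among 16 measured splicing regulators and transcripts spliced under Esrp1 in epithelia, 3 were higher and 2 lower. Of all features 10.0% were higher and 15.9% lower. Cd44, whose exons Esrp1 is known to select, rose by 0.33 ± 0.10, Khdrbs1 by 0.22 ± 0.08 and Celf1 by 0.18 ± 0.04, while Ctnnd1 fell as above and Exoc7 by 0.14 ± 0.03. Which exons the probes of these genes read was not examined, so no statement on exons follows. Fgfr2, also spliced under Esrp1, differed by -0.02 ± 0.07. Its difference passed in opposite directions when a WT set was left out, at 0.14 against WT replicates 3, 4, 7 and 8 alone and at -0.18 against WT replicates 1, 2, 5 and 6 alone. With the sets as a random block Ets1, Elk4, Cd44 and Khdrbs1 did not pass. Leaving out WT replicates 1, 2, 5 and 6 gave a difference of 0.06 for Ets1 and 0.08 for Cd44. Leaving out WT replicates 3, 4, 7 and 8 gave 0.05 for Khdrbs1 and 0.07 for Elk4. None of these 4 values passed.

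Mesenchymal genes, such as those of N-cadherin and fibronectin, are kept low in many epithelia. Of 10 measured genes 6 were lower in M833 and none was higher, with a median of -0.21, where 15.9% of features were lower and 10.0% higher. The TGF-beta receptor gene Tgfbr2 fell by 0.65 ± 0.06, Fn1 by 0.38 ± 0.06, the N-cadherin gene Cdh2 by 0.30 ± 0.04 and the ligand gene Tgfb2 by 0.29 ± 0.08 (SE, n = 8 each). After scaling 2 of them, Tgfbr2 and Cdh2, were lower (16.8% of features). The fit that took the sets as a block called 4 of the 10 lower (7.08% of features). Of 7 measured fibroblast markers, Vim again among them, 5 were lower in M833 and none was higher, with Col1a2 at -0.87 ± 0.08 (SE). After scaling 5 were lower as well, though not all the same genes, and with the sets as a block 2 were lower. Markers of macrophages moved with the contrast: 7 of 7 measured genes were lower in M833, where 15.9% of features were, with list means from -1.60 to -1.29 over the M833 arrays and from -0.46 to -0.28 over the WT arrays. Their part in the differences of the epithelial genes was not tested.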

How the data were processed

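The authors deposited 1 table of normalised log2 ratios for 16 arrays, made with limma per the submitters' processing notes; their version, background correction, normalisation and filters are not stated in those notes. A log2 scale was inferred from the largest value, 15.35. Channel intensities were not used here, so no filter on dim probes was possible. Probe names come from GEO's platform annotation (9600 of 15247 had 1 symbol, and 9492 of these matched a RefSeq gene number) and averaged per gene, which gave 12761 features.

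Features were fitted with limma 3.58.1 in R 4.3.3 (lmFit, eBayes), with terms for cell type and dye orientation over the 16 arrays, and p-values were adjusted by Benjamini-Hochberg over all features. No label describes separate cultures, and p-values therefore measure only the spread between these arrays, whose number limits the precision. The fit was run on simulated arrays drawn independently, without sets or dye effects. It recovered 62% of 50 features changed by 0.25 log2 units and 96% of 50 changed by 0.5, with 10 false calls. Since the simulated arrays held no sets, that run does not check p-values under correlation within sets.

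Replicates 1, 2, 5 and 6 and replicates 3, 4, 7 and 8 of a cell type were treated as sets. Across dye orientations, deviations of arrays from the mean of their cell type and dye correlated within sets with r from 0.03 to 0.24 in M833 and 0.11 to 0.44 in WT, and between sets with r from -0.19 to 0.03 in M833 and -0.44 to -0.07 in WT. In M833 the ranges met at 0.03. Taking off the mean lowers r between sets where r within sets is raised, and the sets were known from these same arrays. These values therefore describe the sets and do not test them. The members, sets and gene lists were chosen with earlier results of these data known. Genes named are the 4 members, measured genes of the epithelial, ErbB and 14-3-3 lists, up to 4 called genes of other lists in their main direction and 2 against it, and the 3 named genes most like each member. Other genes, among them Ehf, Fgfr2, Dcn and genes named for their gap between sets, were added after their values were seen. Alternatives tried were centring, scaling, no dye term, single probes, array weights, values above 8 in size set missing, 1 dye orientation, sets as a random block, and fits without single arrays, without sets, or without 3 M833 arrays whose slide numbers form a separate series.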

Additional observations from a re-analysis of the deposited data

Results flagged for a closer look

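Single arrays stood apart from the other 7 of their cell type in 6 of 86 groups examined, 43 epithelial genes in 2 cell types, where about 5% of groups are picked out by chance. None was in Sfn, Elf3, Esrp1 or Erbb3. Epcam was at -0.21 on M833 replicate 7, against -3.21 to -2.47 on the other M833 arrays, and without that array its difference between M833 and WT was 0.06 in place of 0.40. Lcn2 was at -3.45 on M833 replicate 8, against -2.50 to -1.94 on the others. Marveld3 was at 0.75 on M833 replicate 3, against -0.24 to 0.17, and without that array its difference was -0.48 in place of -0.41. Klf5 was at -1.73 on M833 replicate 3, against -1.51 to -1.32. Grhl1 was at -1.22 on M833 replicate 1, against -1.88 to -1.58, and Myo5b at -0.04 on WT replicate 3, against -0.68 to -0.38.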

How the results depend on the processing

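Sfn differed between M833 and WT by -0.79 without WT replicates 1, 2, 5 and 6 and by 1.71 without WT replicates 3, 4, 7 and 8, and by -0.06 with array weights. Scaling between arrays, which gives each array the same median absolute log ratio, gave -0.04 for Esrp1 and 0.04 for Erbb3. Other settings kept the sign of Elf3, Esrp1 and Erbb3. Fits without 1 array gave 0.25 to 0.66 for Sfn, 0.45 to 0.66 for Elf3, 0.32 to 0.51 for Esrp1 and 0.27 to 0.38 for Erbb3; without the 3 M833 arrays of the second slide series Elf3 was at 0.77 and Esrp1 at 0.66. The 3301 features that passed became 2000 with no dye term, 835 on arrays with the sample in Cy5 and 1100 in Cy3, 1465 with sets as a random block, 1685 without M833 replicates 1, 2, 5 and 6, 1858 without M833 replicates 3, 4, 7 and 8, and 2878 to 3295 without 1 array. Of the wider list 3 were higher and 4 lower: higher became 0 with scaling, 5 with array weights, 1 in Cy3 alone, 1 with sets as a random block, 5 without WT replicates 1, 2, 5 and 6, 11 without WT replicates 3, 4, 7 and 8, 1 without M833 replicates 1, 2, 5 and 6, 5 without the second slide series, and 1 to 7 without 1 array (1 without WT replicate 8 or M833 replicate 7, and 7 without M833 replicate 8). Lower became 12 with scaling, 2 with no dye term, 1 in Cy5 alone, 2 in Cy3 alone, 8 without WT replicates 1, 2, 5 and 6, and 3 to 5 without 1 array. The cause of these changes was not tested. No paired analysis was possible because the replicate numbers follow the order of the series and pair nothing.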

Other observations

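Some marker genes of other embryonic tissues were also far below the reference. Of 5 red cell genes 5, and of 5 liver and yolk sac genes 3, lay below -1 in both cell types. So did 2 of 4 endothelial genes, against 6.34% of all named genes. Nearer to the reference were Apob, at -0.31 in M833 and -0.52 in WT, and Cdh5, at -0.77 in M833 and -0.87 in WT. The red cell genes Hbb-b1 and Alas2 were at -7.05 and -5.54 in M833 and at -6.90 and -5.55 in WT, and the liver genes Alb and Ttr at -6.33 and -5.36 in M833 and at -6.33 and -5.47 in WT. Of 5 measured red cell genes and of 4 endothelial genes none passed between the cell types. Of 5 liver and yolk sac genes Apob alone passed, higher in M833 by 0.21 ± 0.05 (limma adjusted p = 0.00831). Among all features 10.0% were higher and 15.9% lower. The call of Apob was lost after scaling between arrays (limma adjusted p = 0.0968) and in the fit with sets as a block (limma adjusted p = 0.155). After scaling 3 of the 5 red cell genes were lower in M833, with differences of -1.42 for Hbb-b1, -1.02 for Alas2 and -0.41 for Slc4a1, and 3 of the 5 liver and yolk sac genes, with -1.16 for Alb, -0.87 for Ttr and -0.81 for Apoa1, where 16.8% of features were lower. The endothelial gene Pecam1 was at -2.55 in M833 and -2.71 in WT. The pluripotency genes Nanog and Pou5f1 lay near the reference, at 0.14 and 0.12 in M833 and at 0.19 and 0.42 in WT.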
